A study of Mus musculus with 8 samples.

Results

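The genes described here are 10 members of the insulin-like growth factor (IGF) axis: the ligand genes Igf1 and Igf2, the receptor genes Igf1r and Igf2r, and the binding protein genes Igfbp2, Igfbp3, Igfbp4, Igfbp5, Igfbp6 and Igfbp7. They were chosen by name, and each matched 1 of the 46983 Ensembl gene identifiers counted by RNA sequencing in mouse tail epidermis. The study asked how the epidermis changes without NIPP1, the product of Ppp1r8 and a nuclear regulator of the phosphatase PP1. The 4 SKO mice had the genotype K14-Cre/+ Ppp1r8 fl/-, and the 4 CTR mice had the genotype K14-Cre/+ Ppp1r8 fl/+. Both groups were 8 weeks old and carried a Cre transgene driven by the K14 promoter, which is active in basal keratinocytes, together with 1 floxed Ppp1r8 allele. The second Ppp1r8 allele was null in SKO mice and wild type in CTR mice, so Cre could also act on 1 allele in CTR keratinocytes. The strain label gave the alleles as Tg(KRT14-cre)1Amc/J, Ppp1r8tm1Ave and Ppp1r8tm1.1Itl. The epidermal sheet was freed from tail skin by dispase and was not sorted, so any cell type attached to it could contribute RNA.

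IGF1 and IGF2 are secreted growth factors that signal through the receptor tyrosine kinase IGF1R. IGF2R, also known as the cation-independent mannose 6-phosphate receptor, takes IGF2 into lysosomes and also sorts lysosomal enzymes. The binding proteins hold IGFs outside the cell and set how much ligand reaches the receptor. In skin, dermal fibroblasts are a known source of IGF1, while keratinocytes carry IGF1R, and several binding proteins are made by keratinocytes of the epidermis and hair follicle.

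Libraries held 16696212 to 21571935 counts. The floor of detection, taken as 3 counts, was 0.139 to 0.1797 CPM depending on the library. Ppp1r8 had 35.4, 28.4, 34.3 and 47.4 CPM (read counts scaled to a common library size by the trimmed mean of M values) in SKO 1 to 4, against 40.4, 34.7, 41.6 and 35.02 CPM in CTR 1 to 4. These values sum all exons of the gene, including any that Cre leaves in place, so they do not check the genotype labels. The defining keratinocyte gene Krt5 was abundant, at 8102 to 8571 CPM in SKO and 7964 to 9356 CPM in CTR. Of the 6 basal keratinocyte markers, Krt5 and Krt14 did not pass the test and 4 fell (Krt15, Col17a1, Itga6 and Itgb4, with log2 fold changes of -0.89 to -0.36), with sums of 16220 to 16970 CPM in SKO and 17050 to 19180 CPM in CTR. Of 6 suprabasal keratinocyte markers 4 rose, with sums of 44580 to 62120 CPM in SKO and 20370 to 23270 CPM in CTR. Transcripts of 7 hair shaft genes, all 7 lower in SKO, summed to 99.6, 642, 1131 and 179 CPM in SKO 1 to 4 and to 2929, 5452, 5425 and 3475 CPM in CTR 1 to 4. The list of outer root sheath and bulge markers, also of the hair follicle, held Lgr5, Cd34, Sox9, Lhx2, Tbx1 and Krt75, the last a companion layer keratin. They summed to 336 to 545 CPM in SKO and 449 to 657 CPM in CTR. Of these sums, Krt75 alone supplied 97.2 to 297.5 CPM in SKO and 211 to 385 CPM in CTR. Of the 6 genes, 0 changed (0 at an unadjusted p under 0.05 in edgeR, and 0 by DESeq2 or limma-voom). Krt15, which fell, was counted in the basal list only. Markers of other cell types in the sheet moved as well. Of 5 Langerhans cell markers 4 rose, with sums of 295 to 403 CPM in SKO and 223 to 275 CPM in CTR. Most of each sum was Epcam, the marker that did not pass, at 159 to 220 CPM in SKO and 154 to 176 CPM in CTR. Cd207, which rose, had 6.20 to 9.62 CPM in SKO and 3.84 to 5.32 CPM in CTR. Of 6 T cell markers all 3 tested rose, with sums of 13.45 to 25.3 CPM in SKO and 7.43 to 11.6 CPM in CTR. Of these, Cd3e had 12 to 24 reads in SKO and 1 to 4 in CTR, and Trdc had 14 to 39 and 1 to 8. Both passed the filter on low counts only through their SKO libraries, which favoured a rise. Trbc2 had at least 131 reads in every library. Of 6 melanocyte markers 4 rose and 1 fell, with sums of 319 to 537 CPM in SKO and 234 to 346 CPM in CTR. The part of these cell types in the differences of the IGF axis genes was not tested. Of 7 dermal fibroblast markers, 0 of the 4 tested changed (0 at an unadjusted p under 0.05 in edgeR, and 0 by DESeq2 or limma-voom), and their sum was 17.7 to 56.1 CPM in SKO and 33.8 to 52.7 CPM in CTR, with Dpt at 0 in some libraries. Of 6 endothelial markers 0 of the 2 tested changed (likewise 0 unadjusted and by both other tools). They summed to 1.87 to 2.28 CPM in SKO and 1.93 to 4.72 CPM in CTR, with Cdh5, Kdr and Emcn at 0 in some libraries. Of 6 pericyte and smooth muscle markers, Cspg4, which other skin cells also express, rose and the other tested gene, Acta2, had an adjusted p of 0.655. Rgs5 and Myh11 of that list stood apart in SKO 4 (25.8 and 16.0 CPM) and CTR 2 (2.41 and 4.14 CPM), against at most 0.256 CPM in the other 6 libraries. Acta2 was also highest there (31.9 and 17.4 CPM), whereas Des had 0 reads in SKO 4. Of the tested fibroblast markers, Col3a1 (4.77 and 7.17 CPM) and Col1a2 (4.02 and 5.77 CPM) were highest in SKO 4 and CTR 2 too. Col1a1 and Dcn were not highest in SKO 4. Below, both are called libraries with smooth muscle RNA, and whether they hold other dermal RNA was not tested.

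SKO epidermis had less Igf2, Igfbp3, Igfbp5 and Igf1r transcript and more Igfbp6 and Igfbp7 transcript than CTR epidermis. The Igf1r call was the weakest, with overlapping groups, and it ended under 11 of 17 alternative settings. Igfbp2, Igfbp4 and Igf2r did not pass the test, and Igf1, at a few reads per library, was too low to be tested. Thus 6 of the 9 tested members changed, 4 lower and 2 higher. The test was edgeR's quasi-likelihood test with Benjamini-Hochberg adjustment over all 15638 tested genes at a threshold of 0.05. The same test called 23.7% of all tested genes, 12.2% lower and 11.5% higher. The groups did not overlap for 4 members, Igf2, Igfbp3 and Igfbp5 (lower) and Igfbp6 (higher), against 26.2% of the tested genes (13.3% lower and 12.8% higher). In bulk RNA of a sheet of mixed cells, fewer cells of a type and less RNA per cell cannot be told apart.

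**Figure D1:**
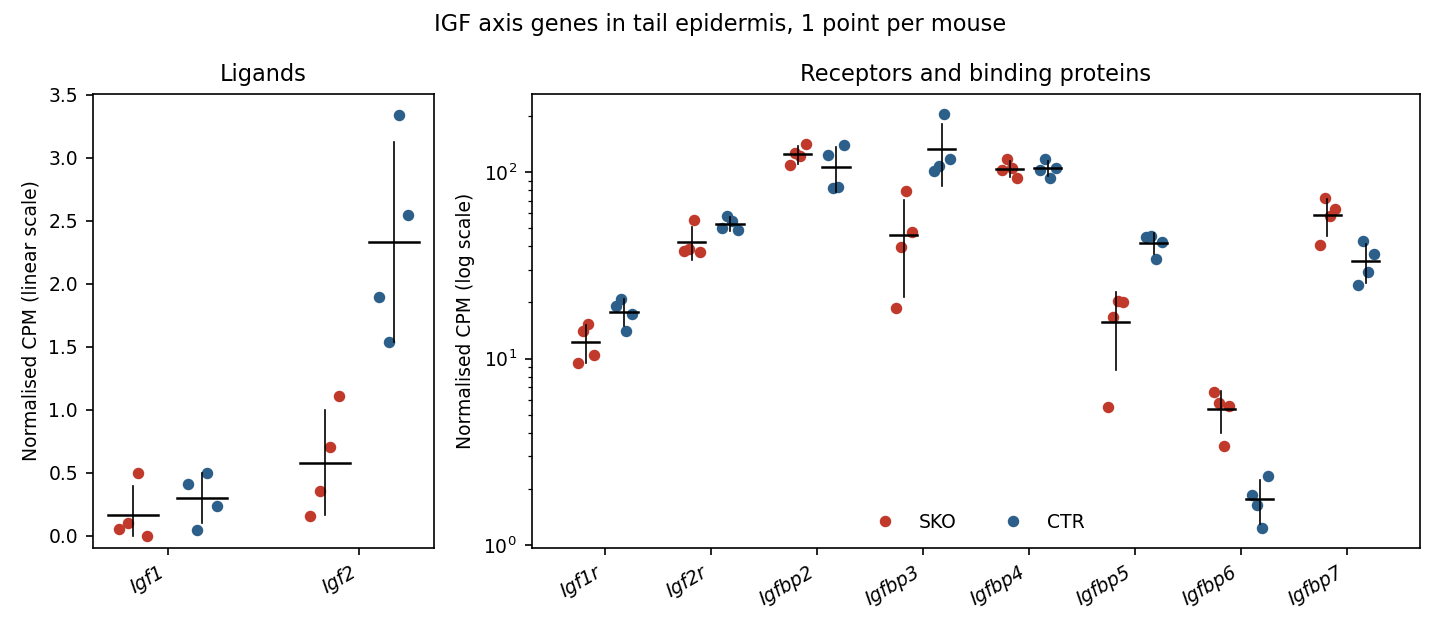
Normalised CPM of the 10 IGF axis genes, with ligands on a linear axis at left and receptors and binding proteins on a log axis at right. Each point is 1 mouse (SKO left of CTR in each pair), long bars are group means and thin bars are SD (n = 4 each, stopped at 0 for Igf1). The SKO points of Igf2, Igfbp3 and Igfbp5 all lie below the CTR points, and those of Igfbp6 all lie above them.

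The ligand genes were the least abundant members. Igf1 (chromosome 10, 87858265 to 87937042, plus strand, GRCm38) had 1, 2, 10 and 0 reads in SKO 1 to 4 and 8, 1, 8 and 5 reads in CTR 1 to 4. The groups overlapped, several libraries lay at or below the floor of 3 counts, and no fold is given. Igf2 (chromosome 7, 142650766 to 142666816, minus strand) had 0.157, 0.354, 0.701 and 1.11 CPM in SKO 1 to 4, against 1.90, 1.54, 3.34 and 2.54 CPM in CTR 1 to 4. Every SKO library was below every CTR library, on 3 to 21 reads in SKO and 32 to 54 reads in CTR. The log2 fold change of Igf2 was -1.98 (SE 0.45, adjusted p = 0.0121), or 3.96-fold lower in SKO. SKO 1 lay at the floor of 3 counts, and without SKO 1 the log2 fold change was -1.67 (adjusted p = 0.0173). Igf2 passed the filter on low counts through its CTR libraries. In GENCODE M21, 3596 bases of its exons are shared with Gm49394 on the same strand and 98 bases with Igf2os on the opposite strand. No counted gene carried the symbol Gm49394.

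Of the receptor genes, Igf1r was lower in SKO and Igf2r did not pass the test. Igf1r (chromosome 7, 67952827 to 68233668, plus strand) had 9.49, 14.01, 15.4 and 10.4 CPM in SKO 1 to 4 and 19.1, 20.9, 14.1 and 17.2 CPM in CTR 1 to 4. The groups overlapped, with SKO 3 above CTR 3. The log2 fold change of Igf1r was -0.54 (SE 0.17, adjusted p = 0.0493), the weakest of the 6 calls, and it ended under 11 of 17 alternative settings (adjusted p = 0.0180 to 0.248 over all 17). Igf2r (chromosome 17, 12682406 to 12769664, minus strand) had 37.9, 38.7, 55.2 and 37.2 CPM in SKO 1 to 4 and 49.8, 58.4, 54.8 and 48.8 CPM in CTR 1 to 4. SKO 3 lay within the CTR range and the other 3 SKO libraries lay below it. The log2 fold change of Igf2r was -0.32 (SE 0.13, adjusted p = 0.0974), and without SKO 3 it was -0.48 (adjusted p = 0.00469). Per kb of exon, Igf2r had 4.99 to 7.21 times the level of Igf1r in SKO libraries and 4.71 to 7.002 times in CTR libraries, so the balance of both receptors overlapped between the groups. The insulin receptor gene Insr, whose product can pair with IGF1R, had 3.45 to 4.72 times the level of Igf1r per kb in SKO and 2.59 to 4.05 times in CTR.

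Among the binding protein genes that changed, promoters differed in 2 core motifs. The 250 bases before their RefSeq starts (GRCm38.p6) are given below, read 5′ to 3′ on the gene's strand, because these are the members on which the binding protein results turn. Capitals mark matches to a TATA-like motif, spelled TATANA, on either strand. They also mark the GC box, which is the sequence GGGCGG, on either strand. The regions are chr11:7213924-7214173 (minus strand) for Igfbp3, chr1:72874866-72875115 (minus strand) for Igfbp5, chr15:102143936-102144185 (plus strand) for Igfbp6 and chr5:77408046-77408295 (minus strand) for Igfbp7.
Igfbp3: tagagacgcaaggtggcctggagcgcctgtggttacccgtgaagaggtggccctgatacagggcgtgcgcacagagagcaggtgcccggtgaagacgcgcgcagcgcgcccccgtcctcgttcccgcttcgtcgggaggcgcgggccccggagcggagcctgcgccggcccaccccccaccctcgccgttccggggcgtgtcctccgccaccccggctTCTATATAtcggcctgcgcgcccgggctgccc
Igfbp5: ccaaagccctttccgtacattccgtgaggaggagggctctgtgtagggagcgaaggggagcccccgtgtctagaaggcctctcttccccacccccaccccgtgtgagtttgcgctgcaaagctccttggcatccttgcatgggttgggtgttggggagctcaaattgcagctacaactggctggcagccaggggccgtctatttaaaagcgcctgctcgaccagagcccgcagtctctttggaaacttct
Igfbp6: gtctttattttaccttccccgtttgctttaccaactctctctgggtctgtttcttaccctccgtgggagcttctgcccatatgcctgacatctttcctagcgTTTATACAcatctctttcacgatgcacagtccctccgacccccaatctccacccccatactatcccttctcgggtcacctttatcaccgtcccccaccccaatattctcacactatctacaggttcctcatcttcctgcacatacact
Igfbp7: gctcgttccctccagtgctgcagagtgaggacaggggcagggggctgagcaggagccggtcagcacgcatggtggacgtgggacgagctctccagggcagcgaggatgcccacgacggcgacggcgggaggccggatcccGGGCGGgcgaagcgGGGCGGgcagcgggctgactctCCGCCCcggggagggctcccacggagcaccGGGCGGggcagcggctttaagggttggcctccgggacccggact
Igfbp3 has 3 overlapping TATA-like matches that end 25 to 27 bases before the start, of which 2 are the same letters matched on both strands. Igfbp7 has 4 GC boxes and Igfbp5 has no match to either motif as spelled. The Igfbp5 window does hold the AT-rich stretch tatttaaaa, which the spelling TATANA does not match. GENCODE M21 places the start of Igfbp5 at 72874884, inside this window. Igfbp6 has 2 overlapping TATA-like matches, which end 141 to 143 bases before the RefSeq start; GENCODE M21 places the gene's start further downstream, at 102144362. Of 32841 mouse promoter windows of the same length, 22.6% held a TATA-like match, 32.7% a GC box and 6.75% the AP-1 motif TGANTCA, which reads the same on both strands and matched none of these 4 windows. All 10 members matched the RefSeq table, with 14 starts, of which 3 held a TATA-like match, 6 a GC box and 2 the AP-1 motif. The matches describe letters only and the data do not bear on factor binding.

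Igfbp3 and Igfbp5, whose products bind IGFs in a complex with the acid-labile subunit in blood and also attach to cell surfaces and matrix, were lower in SKO. Igfbp3 (chromosome 11, 7206086 to 7213923, minus strand) had 18.7, 39.5, 78.7 and 47.8 CPM in SKO 1 to 4 and 101.1, 108, 204 and 117 CPM in CTR 1 to 4. SKO 1 was lowest and CTR 3 highest, and the groups did not overlap. For Igfbp3 the log2 fold change was -1.52 (SE 0.37, adjusted p = 0.0166), or 2.87-fold lower. The Igfbp3 call ended in the robust fit (adjusted p = 0.0610) and without both libraries with smooth muscle RNA, SKO 4 and CTR 2 (adjusted p = 0.0598, log2 fold change -1.62). Igfbp5 (chromosome 1, 72857932 to 72874884, minus strand) had 5.50, 16.74, 20.4 and 20.01 CPM in SKO 1 to 4 and 44.8, 45.7, 34.1 and 42.3 CPM in CTR 1 to 4. SKO 1 stood lowest, the other 3 SKO libraries were close together, and the groups did not overlap. Igfbp5 had a log2 fold change of -1.41 (SE 0.31, adjusted p = 0.0106), or 2.66-fold lower, and -1.13 without SKO 1.

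Igfbp6 and Igfbp7 were higher in SKO. Igfbp6 (chromosome 15, 102144362 to 102149511, plus strand), whose product prefers IGF2 over IGF1, had 6.605, 5.765, 3.41 and 5.56 CPM in SKO 1 to 4 and 1.84, 1.64, 1.24 and 2.35 CPM in CTR 1 to 4. The lowest SKO library, SKO 3, exceeded the highest CTR library, CTR 4, with 68 to 126 reads in SKO and 20 to 50 reads in CTR. Its log2 fold change of 1.58 (SE 0.25, adjusted p = 0.00271), or 2.985-fold higher, had the smallest p of the members. Igfbp7 (chromosome 5, 77349240 to 77408041, minus strand) encodes a protein that binds IGFs more weakly than the other members and is also made by blood vessels. It had 40.5, 72.4, 58.1 and 63.4 CPM in SKO 1 to 4 and 24.8, 42.6, 29.0 and 36.2 CPM in CTR 1 to 4. SKO 1 lay below CTR 2 and the other 3 SKO libraries lay above all CTR libraries. Igfbp7 had a log2 fold change of 0.82 (SE 0.20, adjusted p = 0.0150), or 1.77-fold higher. Without SKO 4 and CTR 2, the libraries with smooth muscle RNA, it was 0.92 (adjusted p = 0.0302). In GENCODE M21 the exons of Igfbp7 share 85 bases with Polr2b on the opposite strand.

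Igfbp2 and Igfbp4, among the most abundant members, did not pass the test. Igfbp2 (chromosome 1, 72824503 to 72852474, plus strand) had 108.5, 127, 121.5 and 141 CPM in SKO 1 to 4 and 123, 81.9, 82.8 and 139 CPM in CTR 1 to 4. The groups overlapped, with CTR 2 and CTR 3 lowest (log2 fold change 0.22, SE 0.17, adjusted p = 0.370). Igfbp4 (chromosome 11, 99041244 to 99054392, plus strand) averaged 104 ± 9.81 CPM in SKO and 104.5 ± 9.85 CPM in CTR (SD, n = 4 each). Its log2 fold change was -0.00 (SE 0.09, adjusted p = 0.987), the smallest difference among the tested members, with either sign depending on the scaling. Igfbp2 and Igfbp5 are neighbours on chromosome 1, with 5457 bases between the ends of both genes. The ratio of Igfbp5 to Igfbp2 CPM within a library, which does not depend on scaling, was 0.0508 to 0.168 in SKO and 0.303 to 0.558 in CTR.

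**Figure D2:**
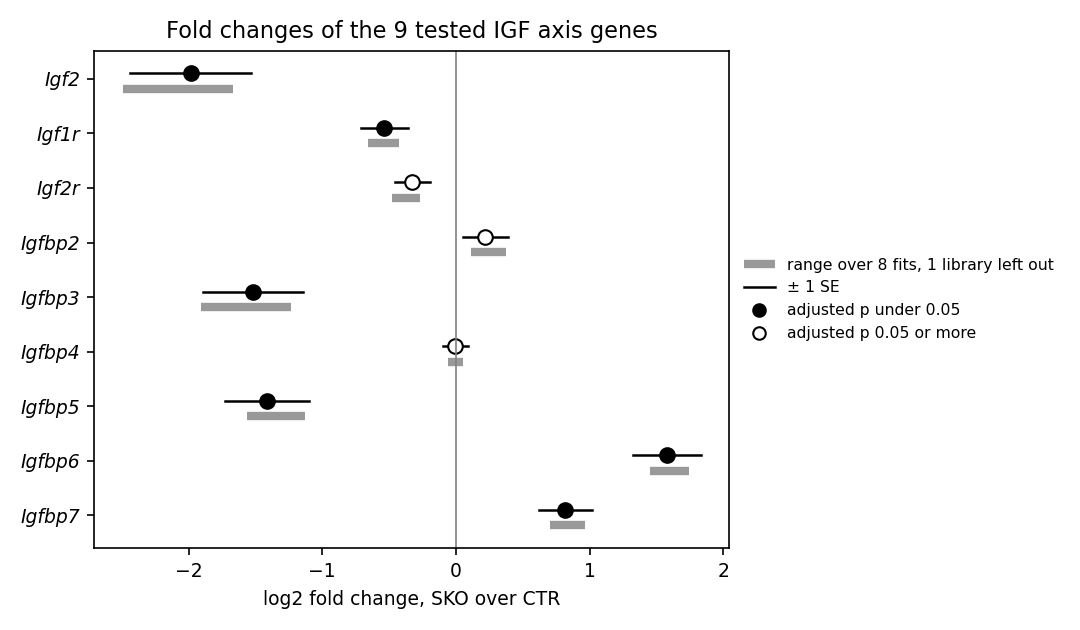
Log2 fold change of SKO over CTR for the 9 tested members, with points at the fitted value and thin bars of 1 SE. Grey bars span the 8 fits that each left out 1 library, and they stay on 1 side of zero for all members shown but Igfbp4.

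Per kb of exon, which allows levels of different genes to be compared, Igfbp2, Igfbp3, Igfbp4 and Igfbp7 led in both groups. The mean of Igf2r exceeded that of Igfbp5 in SKO and that of Igfbp6 in CTR. In SKO the mean order was Igfbp2 (67.4 CPM per kb), Igfbp7 (48.5), Igfbp4 (23.6), Igfbp3 (14.8), Igfbp6 (4.80), Igf2r (4.54), Igfbp5 (2.61), Igf1r (0.733), Igf2 (0.102) and Igf1 (0.0165). In CTR the mean order was Igfbp2 (57.8 CPM per kb), Igfbp3 (42.4), Igfbp7 (27.4), Igfbp4 (23.7), Igfbp5 (6.94), Igf2r (5.69), Igfbp6 (1.59), Igf1r (1.06), Igf2 (0.407) and Igf1 (0.02999). Several neighbours in these orders overlapped between libraries. In SKO these were Igfbp2 and Igfbp7, Igfbp4 and Igfbp3, Igfbp6 and Igf2r, and Igf2 and Igf1. In CTR they were the 4 leading genes, each with the next, Igfbp5 and Igf2r, and Igfbp6 and Igf1r. Lengths were unions of all GENCODE M21 exons of a gene, so the per-kb level of a gene with long or rarely used exons, such as Igf1 and Igf1r, is understated.

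The make-up of binding protein transcripts differed while their sum overlapped. The 6 genes together had 128, 176, 169 and 174 CPM per kb in SKO 1 to 4 and 152, 150, 162 and 176 CPM per kb in CTR 1 to 4. Igfbp3 supplied 8.88% ± 4.35 of this sum in SKO and 26.5% ± 9.25 in CTR (SD, n = 4 each). Igfbp7 supplied 29.7% ± 3.37 in SKO and 17.2% ± 4.45 in CTR, and Igfbp6 supplied 3.07% ± 1.16 in SKO and 0.992% ± 0.222 in CTR. Igfbp5 supplied 1.56% ± 0.591 in SKO and 4.38% ± 0.748 in CTR. The shares of these 4 genes did not overlap between groups, although Igfbp7 did overlap in CPM. These are the binding protein genes called above on the same values, so their shares are no separate result. In CPM, 26.2% of all tested genes did not overlap. Igfbp2 was the main contributor in every SKO library, at 38.9% to 45.8%, and in 3 CTR libraries, while Igfbp3 led in CTR 3 with 40.3%. Shares within a library are tied to each other and were not tested.

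**Figure D3:**
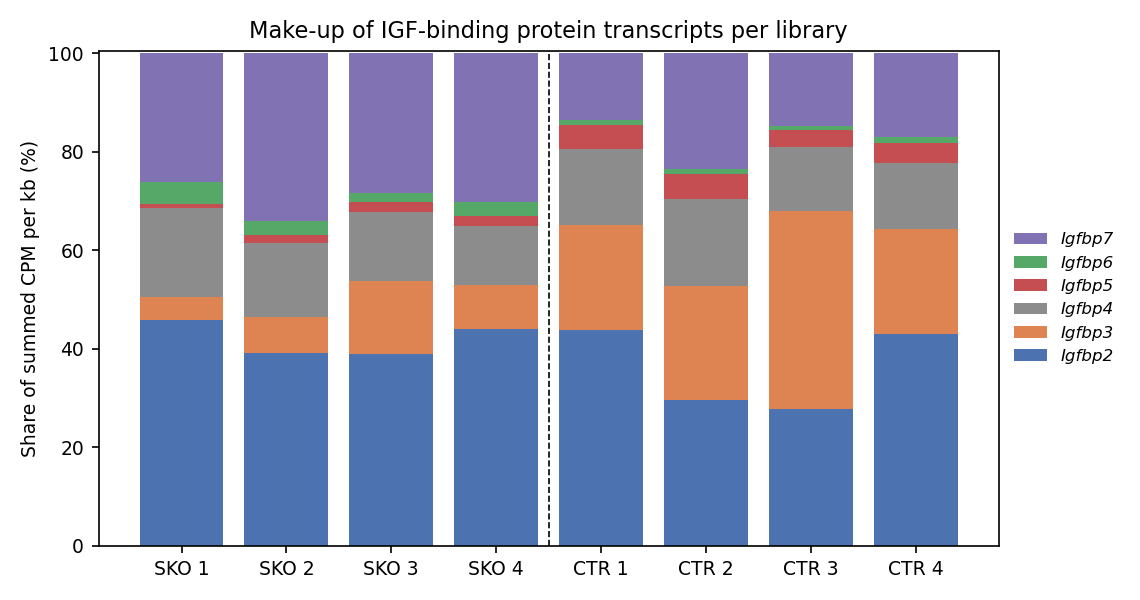
Share of each of 6 IGF-binding protein genes in their summed CPM per kb, 1 stacked bar per library, with SKO left and CTR right of the dashed line. The Igfbp3 band covers 4.64% to 14.9% in SKO and 21.3% to 40.3% in CTR, and the Igfbp7 band covers 26.1% to 34.1% in SKO and 13.5% to 23.5% in CTR.

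The members that changed were also set beside the hair shaft sum, since K14-Cre acts in hair follicles as well. Among SKO libraries SKO 1 had the least hair shaft RNA, the lowest Igf2, Igf1r, Igfbp3, Igfbp5 and Igfbp7, and the highest Igfbp6. SKO 3 had the most hair shaft RNA, the highest Igf1r, Igfbp3 and Igfbp5, and the lowest Igfbp6. The order was not shared throughout: SKO 4, with the second lowest hair shaft sum of the SKO libraries, had the highest SKO Igf2 and had more Igfbp3 and Igfbp5 than SKO 2. In CTR, CTR 2 and CTR 3 had similar hair shaft sums, with 108 and 204 CPM of Igfbp3. With 4 libraries a group no correlation is given, and the part of hair follicle RNA in these differences was not tested.

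**Figure D4:**
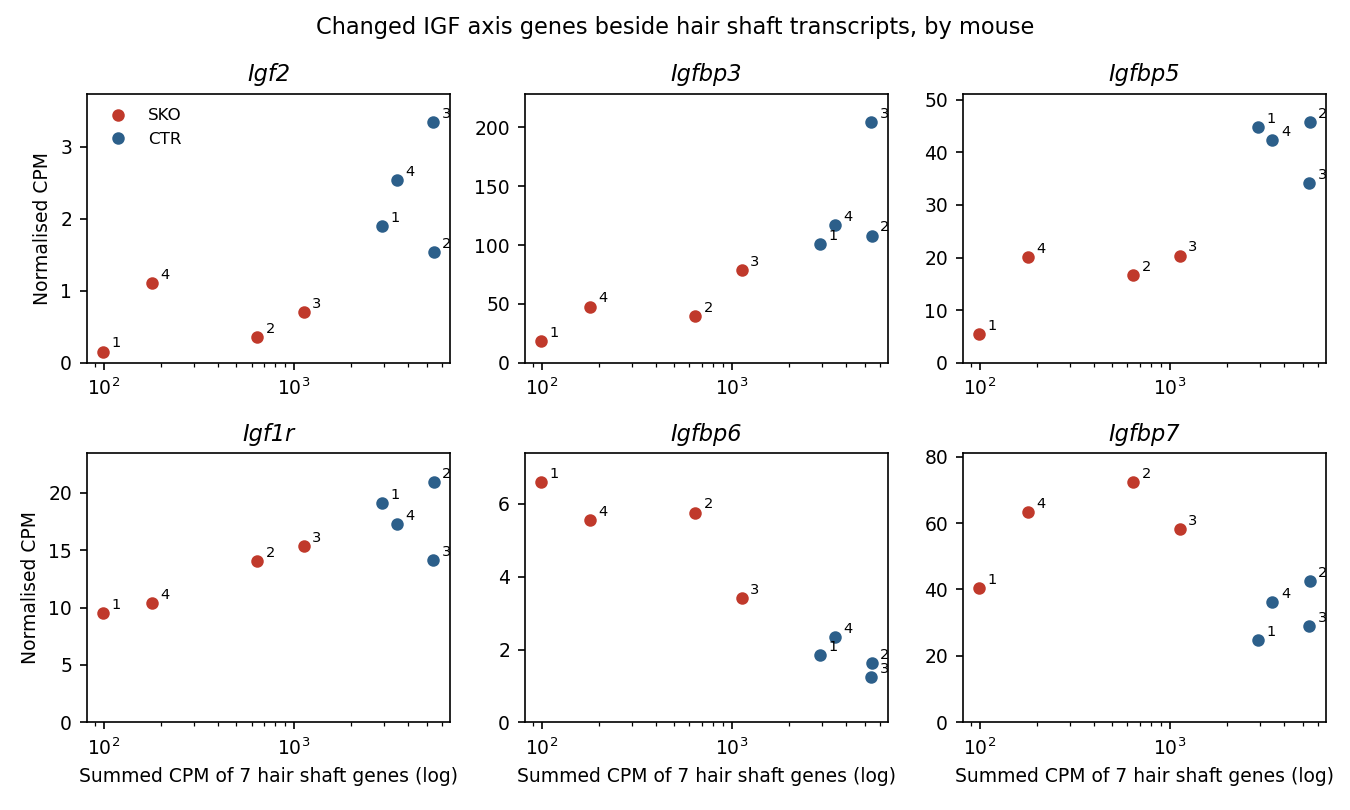
Normalised CPM of the 6 changed members (linear axes) against the summed CPM of 7 hair shaft genes (log axis), 1 numbered point per mouse in SKO and CTR. SKO libraries lie left of CTR libraries in every panel, and SKO 1, at the far left, has the lowest SKO value of each gene but Igfbp6.

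Beyond the members, 76 other genes of the pathway were taken in 6 lists, of which 61 were tested. Of these, 2 rose and 11 fell (13 changed, or 21.3%), with a median log2 fold change of -0.09, against -0.00 over all genes tested. This share lies near the 23.7% of all tested genes. Without SKO 1 the count was 8 of 62 (12.9%), beside 18.9% of all genes tested in that fit. Without CTR 2 it was also 8 of 62 (12.9%), beside 16.6% of all genes tested.

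Genes that set how much IGF is free moved in both directions: of 12 listed, 6 were tested, 1 rose and 2 fell (median log2 fold change 0.04). Over all tested genes, 11.5% rose and 12.2% fell. Kazald1, an IGFBP-related secreted protein, had 9.28, 9.15, 10.3 and 12.6 CPM in SKO 1 to 4 and 24.3, 18.9, 26.4 and 17.8 CPM in CTR 1 to 4, without overlap. Its log2 fold change was -1.08 (SE 0.16, adjusted p = 0.00166). Stc1, of the stanniocalcin family that inhibits the IGFBP protease PAPP-A, averaged 1.45 ± 0.695 CPM in SKO and 3.24 ± 0.913 CPM in CTR (log2 fold change -1.15, adjusted p = 0.0341). Htra1, a secreted protease that can cleave IGFBP5, averaged 85.1 ± 10.6 CPM in SKO and 65.2 ± 9.14 CPM in CTR (log2 fold change 0.38, adjusted p = 0.0412). The Stc1 and Htra1 calls each ended in 6 of 17 alternative settings (adjusted p up to 0.168 and 0.0887). The PAPP-A gene Pappa had 7.81 to 16.2 CPM in SKO and 12.4 to 22.1 CPM in CTR (adjusted p = 0.419), and Igfals, the gene of the acid-labile subunit, had 2.49 to 3.41 CPM in SKO and 1.60 to 2.98 CPM in CTR (adjusted p = 0.231).

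Close to the receptor, 0 of 13 tested genes of 16 listed passed edgeR's adjusted threshold (median log2 fold change -0.08; 3 at an unadjusted p under 0.05, and 1 each by DESeq2 and limma-voom), and 0 of 5 genes of the growth hormone arm did (median -0.26; 0 unadjusted and 0 by either tool). The phosphatase genes Ptpn11 and Ptpn1 were the most abundant of the receptor list, at 194 ± 13.4 CPM in SKO and 225 ± 2.203 CPM in CTR for Ptpn11 (adjusted p = 0.0521) and at 114 ± 3.54 CPM in SKO and 113 ± 2.13 CPM in CTR for Ptpn1 (adjusted p = 0.955). In the DESeq2, limma-voom and robust fits and without SKO 3 Ptpn11 passed the threshold (adjusted p = 0.0156, 0.0406, 0.0487 and 0.0234). Jak2, the kinase gene used by the growth hormone receptor, averaged 55.8 ± 3.75 CPM in SKO and 49.9 ± 4.12 CPM in CTR (adjusted p = 0.181). Stat5a, a transcription factor gene of the same arm, averaged 35.2 ± 11.6 CPM in SKO and 48.8 ± 21.6 CPM in CTR (adjusted p = 0.272).

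In the PI3K-AKT-mTOR arm, which carries the IGF signal inside the cell, 22 of 22 genes were tested, 1 rose and 4 fell (median log2 fold change -0.08). The called share of all tested genes was 11.5% higher and 12.2% lower. Pik3r1, a regulatory subunit gene of PI3K, had 127, 134, 137 and 118 CPM in SKO 1 to 4 and 219, 265, 207 and 163 CPM in CTR 1 to 4. No SKO library reached the CTR range, and the log2 fold change was -0.73 (SE 0.13, adjusted p = 0.00415). Pik3r3, another regulatory subunit gene, averaged 21.3 ± 1.995 CPM in SKO and 34.5 ± 5.43 CPM in CTR, also without overlap (log2 fold change -0.69, SE 0.12, adjusted p = 0.00362). Foxo1, a transcription factor that AKT inhibits, averaged 39.8 ± 4.58 CPM in SKO and 50.6 ± 5.16 CPM in CTR (log2 fold change -0.34, adjusted p = 0.0377). That call ended in 7 of 17 alternative settings, with adjusted p up to 0.163. Rps6kb1, an S6 kinase gene downstream of mTOR, also fell, with a log2 fold change of -0.25 (adjusted p = 0.0247).

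Of 14 IGF2 mRNA-binding protein and imprinted growth genes, 8 were tested, and 0 rose and 3 fell (median log2 fold change -0.67). Over all tested genes, 11.5% rose and 12.2% fell, and the other tested genes of this short list did not pass. H19, a non-coding RNA gene that shares the imprinted domain on chromosome 7 with Igf2, had 1.73, 3.29, 5.16 and 8.68 CPM in SKO 1 to 4 and 21.56, 22.2, 11.9 and 41.1 CPM in CTR 1 to 4. The groups did not overlap, and the 4 SKO libraries had the same order for H19 as for Igf2, whereas the 4 CTR libraries did not. H19 had a log2 fold change of -2.36 (SE 0.46, adjusted p = 0.00628). The imprinted gene Mest averaged 0.835 ± 0.285 CPM in SKO and 2.54 ± 0.462 CPM in CTR (log2 fold change -1.60, adjusted p = 0.00302). Cdkn1c, an imprinted gene of a cell cycle inhibitor, averaged 0.634 ± 0.186 CPM in SKO and 1.59 ± 0.370 CPM in CTR (log2 fold change -1.31, adjusted p = 0.00847). It had 9 to 16 reads in SKO and 26 to 34 reads in CTR, and passed the filter on low counts through its CTR libraries. Peg3 and Plagl1, imprinted genes of the same list, had adjusted p of 0.310 and 0.309.

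Of 7 genes that tag proteins with mannose 6-phosphate or sort them with Igf2r, all were tested, and 0 rose and 2 fell (median log2 fold change -0.02). Among all tested genes, 11.5% rose and 12.2% fell. Gnptab, a subunit of the enzyme that starts the mannose 6-phosphate tag, had 59.0, 63.5, 79.1 and 64.9 CPM in SKO 1 to 4 and 117.5, 107, 104.5 and 93.2 CPM in CTR 1 to 4. The groups did not overlap, and the log2 fold change was -0.66 (SE 0.10, adjusted p = 0.00233). Gga3, a sorting adaptor gene, averaged 14.8 ± 1.52 CPM in SKO and 19.3 ± 2.59 CPM in CTR (log2 fold change -0.38, adjusted p = 0.0417), and that call ended in 9 of 17 alternative settings (adjusted p up to 0.112). M6pr, the gene of the other mannose 6-phosphate receptor, had 118.5 to 132.5 CPM in SKO and 103 to 122 CPM in CTR (adjusted p = 0.132).

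**Figure D5:**
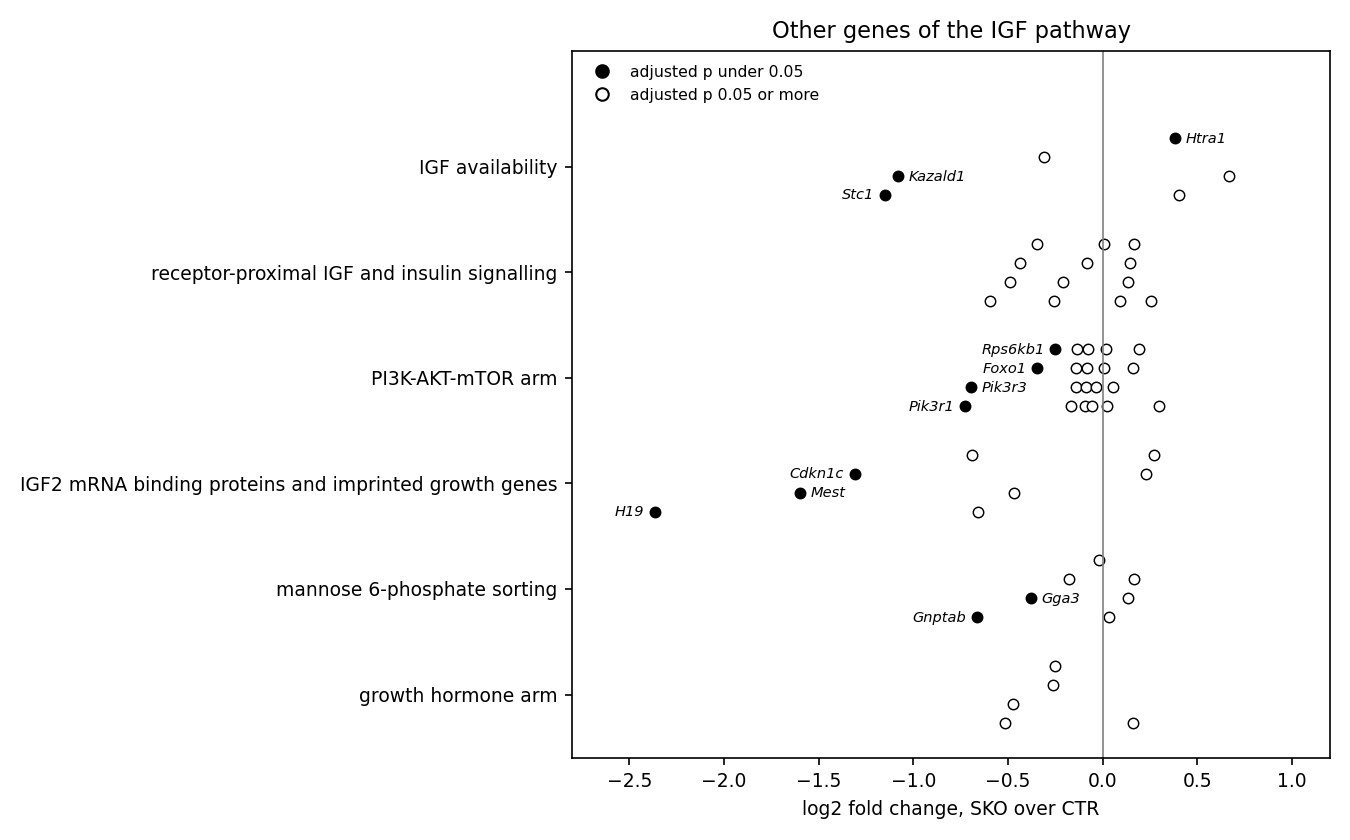
Log2 fold change of SKO over CTR for 60 of the 61 tested genes of the 6 other pathway lists, 1 point per gene, stacked within a list for legibility. Filled points, which carry names, passed the adjusted threshold: 11 lie left of zero and Htra1 lies right of it.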

How the data were processed

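RNA of tail epidermis from 4 SKO and 4 CTR mice was read as stranded, single-end poly-A libraries, 1 per mouse, per the labels' protocols. The authors deposited raw counts per Ensembl gene, and the submitters' processing notes name STAR 2.4.1d, featureCounts 1.4.6 and build GRCm38. Neither the annotation release nor the strand setting is known from them, so how reads of overlapping genes were counted or dropped is not known. Columns were matched to mice by the identifier in the titles, and groups came from the genotype. Replicate numbers only name libraries. No pair of libraries within a group agreed within sampling noise (chi-square per degree of freedom 14.0 to 60.2). The labels give each library its own mouse, but no litter, sex or batch.

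Counts were fitted over all genes with edgeR 4.0.16 (quasi-likelihood, two-sided, TMM, filterByExpr, which kept 15638 genes) in R 4.3.3, with Benjamini-Hochberg adjustment. The script was tested on simulated data. Alternatives were other scalings and filters, a robust fit, DESeq2 1.42.0, limma-voom (limma 3.58.1) and leaving out libraries. Symbols and exon lengths came from GENCODE M21. Per-kb levels divide CPM by the union of exons. Named genes were all members, Ppp1r8, in each list the changed genes of largest fold (at most 4, averaging 1 CPM or more) or else the most abundant ones (to make 2), the 3 genes most alike each member, and markers beside a result. Pappa, Igfals, Rps6kb1, Peg3, Plagl1, M6pr and Insr were added after their values were seen. The members and lists were chosen with earlier results of these data known. Floors cover counting error only, whereas SD and SE include the spread between mice. The values of 1 gene of the PI3K-AKT-mTOR list, which is included in the counts, are not reported here.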

Additional observations from a re-analysis of the deposited data

Results flagged for a closer look

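In 52 sets of 4 libraries (26 genes in SKO and in CTR), 2 held a library far from the other 3 of its group by Dixon's ratio, where chance alone gives about 1 in 20. Igf2r had 55.2 CPM in SKO 3, against 37.2 to 38.7 CPM in the other SKO libraries. Igfbp3 had 204 CPM in CTR 3, against 101.1 to 117 CPM in the other CTR libraries. Without CTR 3 the log2 fold change of Igfbp3 was -1.24 (adjusted p = 0.0460).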

How the results depend on the processing

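Igf2, Igfbp5, Igfbp6 and Igfbp7 kept their direction and their call under all 17 alternatives, with log2 fold changes of -2.65 to -1.67, -1.57 to -1.13, 1.45 to 1.748 and 0.70 to 0.97. Between 4 and 7 members were called over the alternatives, and 5 to 7 when 1 library was left out. The Igfbp3 call ended under 2 alternatives and that of Igf1r under 11. The adjusted p of Igf1r was 0.0503 with DESeq2's size factors in edgeR, 0.0521 with upper-quartile factors, 0.0570 with library totals and 0.0510 with the stricter filter. The log2 fold change of Igfbp4, -0.003 as reported and never past the threshold, was positive with upper-quartile factors (0.022), library totals (0.017), no count filter (0.004) and without both SKO 4 and CTR 2 (0.109), and ranged from -0.057 to 0.056 with 1 library left out. That of Ptpn1 ranged from -0.011 to 0.027 with 1 library left out, and that of Stat5a was 0.03 without both SKO 4 and CTR 2. The alternative without both libraries was chosen after seeing the data, and 1708 genes in all were then called in place of 3700, with fewer samples in the fit. Leaving out 1 library gave 2589 to 4370 called genes in all and 8 to 15 called genes of the other pathway lists. At 4 libraries a group, and with few reads for Igf1 and Igf2, small differences can be missed, and no batch, litter or sex could be fitted. The median shift of all genes under the other scalings was at most 0.03 on the log2 scale.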

Other observations

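Among 14384 genes averaging 1 CPM or more, those whose deviations from the group means over the 8 libraries were most like a member's were Zc3h4 for Igf2r (Pearson r = 0.997), Dtnbp1 for Igfbp6 (0.991), Mat2a for Igfbp2 (0.989), Als2cl for Igfbp5 (0.988), Hmgxb3 for Igfbp4 (0.988), Cnksr1 for Igfbp3 (0.987), Galnt6 for Igf2 (0.985), Myo9b for Igf1r (0.983) and Pcolce, a collagen-processing enhancer gene, for Igfbp7 (0.981). The next most alike genes, 2 per member, with r of 0.965 to 0.989, were Tmem45a2 and Ccdc162 for Igf2, Arhgap26 and Tarbp1 for Igf1r, Cdc73 and Bmp2k for Igf2r, Sphk2 and Dus1l for Igfbp2, Gm7809 and Abi1 for Igfbp3, Zyx and Fbxo30 for Igfbp4, Osgin2 and Plagl2 for Igfbp5, Trmt6 and Mxd3 for Igfbp6 and Pla2g6 and Nupr1 for Igfbp7. These values are the highest of many genes over 8 libraries of shared depth and scaling and are given as a description. Of 5 adipocyte markers 2 were tested, 1 lower and 1 higher. The fatty acid-binding protein gene Fabp4 had 1.15 to 5.76 CPM in SKO and 13.5 to 24.3 CPM in CTR (edgeR adjusted p = 0.00225). The lipid droplet gene Cidec had 2.22 to 3.21 CPM in SKO and 0.577 to 2.02 CPM in CTR (edgeR adjusted p = 0.0200), while Adipoq, the defining adipocyte gene, was at 0 in 7 of the 8 libraries.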
